A study of Mus musculus with 59 samples.

Results

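The genes described here are 9 mouse genes of the T cell receptor (TCR) and of the machinery that assembles it, chosen by symbol out of 45706 genes listed in each count table. They are the TCR beta constant genes Trbc1 and Trbc2, the delta constant gene Trdc, the gamma constant genes Tcrg-C1 and Tcrg-C2, the pre-TCR alpha chain gene Ptcra, the recombinase genes Rag1 and Rag2, and Dntt, which encodes terminal deoxynucleotidyl transferase. All 9 symbols matched an Ensembl ID in the tables. The rule lists symbols and uses no measured value, though the list was drawn up with earlier results of these data known.

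RAG1 and RAG2 together cut DNA at the recombination signals that flank variable, diversity and joining segments, and the non-homologous end-joining machinery rejoins the ends. Dntt adds untemplated bases at these joins. A constant gene supplies the invariant part of each chain, and constant genes are also transcribed before their locus is rearranged. In the thymus, beta, gamma and delta loci rearrange at the DN2 and DN3 stages of early double-negative progenitors, and pTalpha, the product of Ptcra, pairs with a rearranged beta chain at DN3.

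The study set TCF-1, the transcription factor encoded by Tcf7, against deletion constructs of it. In the cell line arm, Tcf7 KO scid.adh cells, a thymic lymphoma line from a SCID mouse whose titles name 1 knockout line (DN3-KO_HMG-E10), received retrovirus with empty vector (EV), WT TCF-1 or the DL1, DL2, DL6, DL7 or DHMG construct and were sorted 72 h later, with 2 libraries in each of 7 groups. In the primary arm, bone marrow derived progenitors of the strain Tcf7eGFP fl/fl Cre+, titled TCF1KO LSK, were grown on OP9-DLL1, stromal cells that carry a Notch ligand, and sorted after 7 days. DN1 cells carried EV, P45, L1d, L7d or HMGd and DN2 cells carried P45, L1d or L7d, where P45 is the name that the cell line titles give to the WT construct. Every group, controls included, was thus a Tcf7 knockout by label, and the driver of the Cre and the ages of the animals are not given in the sources used here. Each of the 8 primary groups had 2 replicates, each summed over the libraries that share a B number, and nothing in the labels says that replicates came from separate cultures or animals, so p-values measure the spread between these replicates, which may be technical.

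Of 59 libraries 58 were used, with 3.82 to 9.48 M of gene reads in the line, 4.17 to 18.96 M in primary libraries and 9.06 to 34.39 M per summed primary replicate. In the cell line, Tcf7 was at 558 ± 9.86 CPM (read counts scaled to a common library size) with EV (SD, n = 2), so that the targeted gene still gave reads, and at 1770 ± 64.3 CPM with WT. With the deletion constructs it was above WT in the line, from 1930 ± 14.7 CPM with DL7 to 3750 ± 26.5 CPM with DHMG. In DN1 cells Tcf7 was at 3.79 ± 0.661 CPM with EV and 637 ± 16.2 CPM with P45, and from 730 ± 49.1 (L1d) to 878 ± 122 CPM (HMGd) with the others. In DN2 cells it was at 719 ± 5.86 CPM with P45, 846 ± 50.8 CPM with L1d and 1080 ± 46.1 CPM with L7d. Tcf7 levels thus differed between constructs, and their part in the comparisons below was not tested. The sorted stages were checked against their markers. Il2ra, which encodes CD25, was at 2.81 ± 0.861 CPM in P45 DN1 cells and 1230 ± 67 CPM in P45 DN2 cells, and Cd44 fell from 359 ± 11.6 to 169 ± 0.728 CPM. Kit went against the c-Kit low gate, at 101 ± 10.9 CPM in DN1 and 272 ± 16.6 CPM in DN2. In the line, Kit and Cd44 had 0 reads with EV, while Il2ra was at 1010 ± 22.6 CPM and the 4 CD3 chain genes summed to 768 to 951 CPM across the 14 libraries.

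The beta and the gamma constant genes among the members form near-identical pairs. The stretches where each pair differs most are shown because reads can be assigned to a single copy only where the copies differ. The coding sequences of Trbc1 and Trbc2 (518 bases each) were identical at 95.6% of positions with 23 mismatches, and those of Tcrg-C1 and Tcrg-C2 at 97.4% of 500 aligned positions with 13 mismatches. The sequences are from the GENCODE M21 transcripts on GRCm38, coding bases 459 to 518 for the beta pair and 88 to 147 for the gamma pair, with positions that differ between the copies in capitals.
Trbc1: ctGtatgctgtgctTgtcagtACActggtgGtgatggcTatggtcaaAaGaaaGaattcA
Trbc2: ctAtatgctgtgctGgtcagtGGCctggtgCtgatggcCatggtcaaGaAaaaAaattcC
Tcrg-C1: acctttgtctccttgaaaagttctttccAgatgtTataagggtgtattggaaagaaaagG
Tcrg-C2: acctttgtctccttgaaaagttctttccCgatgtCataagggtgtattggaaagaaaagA
Windows of 38 bases that also occur in another gene's transcripts made up 43.2% of Trbc1, 46.9% of Trbc2, 44.1% of Tcrg-C1 and 37.2% of Tcrg-C2, against 0.685% of Rag1, 5.38% of Rag2, 4.17% of Ptcra, 6.23% of Trdc and none of Dntt. How the authors' counting treated reads that fit both copies was not tested, so levels of the 4 paired constant genes, and shares between them, are uncertain.

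By GENCODE M21 on GRCm38, Trbc1 (ENSMUSG00000076490) lies at chr6:41538218-41539881 and Trbc2 (ENSMUSG00000076498) at chr6:41546730-41548352, both on the plus strand. Tcrg-C1 (ENSMUSG00000076749, plus) lies at chr13:19214103-19217024, Tcrg-C2 (ENSMUSG00000076752, minus) at chr13:19304649-19307551, and Trdc (ENSMUSG00000104876, plus) at chr14:54142851-54148868. Ptcra (ENSMUSG00000036858, minus) lies at chr17:46755663-46763712 and Dntt (ENSMUSG00000025014, plus) at chr19:41029275-41059525. Rag1 (ENSMUSG00000061311, minus) at chr2:101638282-101649501 and Rag2 (ENSMUSG00000032864, plus) at chr2:101624718-101632529 are neighbours that point toward each other. The annotated gene B230118H07Rik overlaps both, on the strand of Rag1 and antisense to Rag2. Gm43434 and Trdv5 lie antisense to Trdc, and Gm26904 antisense to Ptcra. The kit keeps strand, and reverse-strand counts were used throughout.

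The promoters of Rag1 and Rag2 are shown because the data below separate these neighbours. Both are RefSeq sequences on GRCm38.p6, from 250 bases before the gene's start to 50 bases after it, at chr2:101649483-101649782 on the minus strand for Rag1 and chr2:101624462-101624761 on the plus strand for Rag2. Capitals mark matches to CANNTG, the E-box that E proteins bind, which reads the same on both strands.
Rag1: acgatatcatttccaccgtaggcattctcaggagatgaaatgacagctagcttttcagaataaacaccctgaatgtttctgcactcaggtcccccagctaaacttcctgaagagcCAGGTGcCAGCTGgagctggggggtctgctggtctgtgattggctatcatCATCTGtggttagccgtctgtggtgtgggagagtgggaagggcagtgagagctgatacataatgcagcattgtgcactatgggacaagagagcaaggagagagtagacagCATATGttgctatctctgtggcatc
Rag2: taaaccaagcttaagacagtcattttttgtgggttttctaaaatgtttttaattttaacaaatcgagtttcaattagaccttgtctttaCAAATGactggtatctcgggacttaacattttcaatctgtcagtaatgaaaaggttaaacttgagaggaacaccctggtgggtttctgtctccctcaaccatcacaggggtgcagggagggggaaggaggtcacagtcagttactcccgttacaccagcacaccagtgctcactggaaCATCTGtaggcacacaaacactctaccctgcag
The Rag1 window holds 4 E-box matches and the Rag2 window 2, and 72.3% of 32851 promoter windows of the same length hold at least 1. The letters CTTTG, the core that TCF/LEF factors bind, were searched on both strands and occur in 53.9% of these windows. They are in none of the windows of Ptcra, Rag1, Rag2 and Dntt, the 4 members with a RefSeq promoter. The longer CTTTGA, which contains that core, occurs in 16% of all windows.

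In the cell line, Rag1 was the member with the highest level per length and Rag2 was close to absent from the libraries. Rag1 was at 553 to 746 CPM in the 14 libraries, with a median of 635 CPM and 54748 reads in all. Rag2 had 13 reads in all on its own strand, between 0 and 4 in a library, and 0 in 7 of 14. On the opposite strand of Rag2 the same libraries held 94 reads. Per length, Rag1 averaged 95.8 CPM per kilobase of exon and Rag2 0.0549 CPM per kilobase. A library was thus high for one recombinase subunit and at or near 0 reads for the other in every construct group.

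Ptcra was next per length, at 80.3 to 109 CPM with a median of 87.3 CPM, or 70.6 CPM per kilobase. Trbc2 was at 10.9 to 19.7 CPM, or 21.8 CPM per kilobase. Dntt was at 0.523 to 2.61 CPM, from 122 reads in all, or 0.613 CPM per kilobase. All 3 were detected in each of the 14 libraries. The remaining constant genes gave almost no reads: Trdc had 18 reads in all and 0 in 8 libraries, Trbc1 had 1 read, and Tcrg-C1 and Tcrg-C2 had 0 in all 14 libraries. A count of 0 over the 2 EV libraries allows up to 0.227 CPM for either gamma gene, taking 3 counts over the group as the limit and covering counting error only. Of 1330 reads assigned to a beta constant gene, 1329 were on Trbc2.

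The other segments of the receptor loci were also counted in the line. The 34 beta variable genes held 665 reads and the 128 alpha variable genes 902, of which Trav17 (7.93 CPM on average) and the beta segment Trbv13-2 (4.58 CPM) had the highest levels. The 7 gamma variable and 4 gamma joining genes had 0 reads, and the alpha constant gene had 0 reads.

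**Figure D1:**
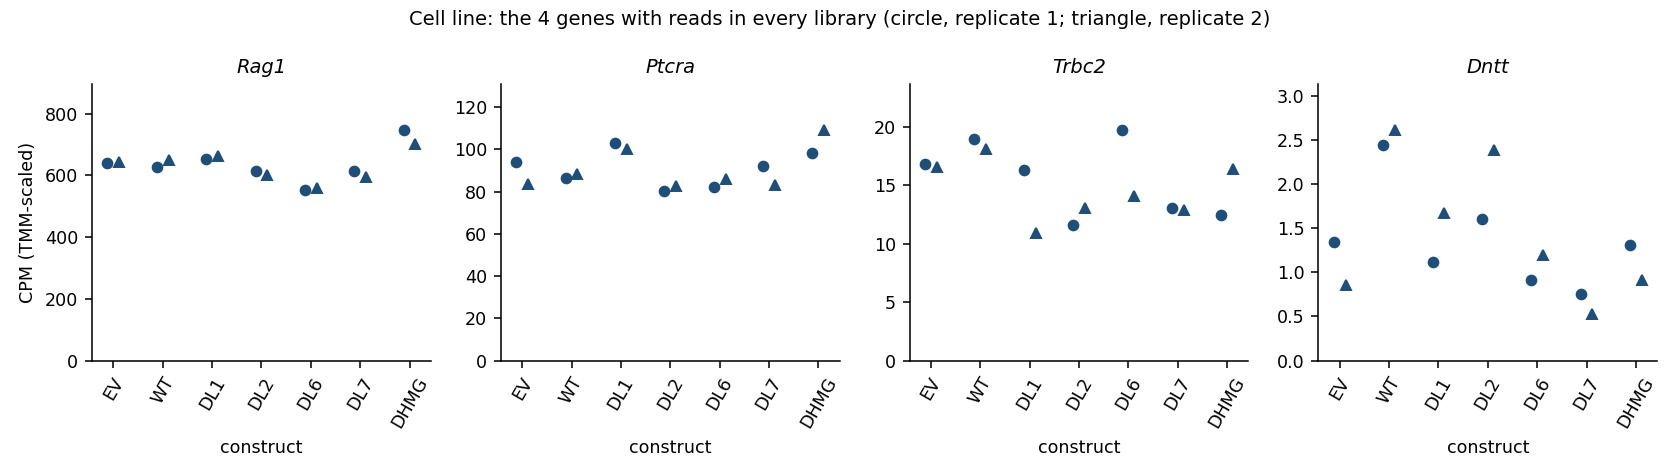
Rag1, Ptcra, Trbc2 and Dntt in the cell line, in TMM-scaled CPM on a linear axis from 0 (y) for the 7 constructs (x), with a circle for replicate 1 and a triangle for replicate 2. Rag1 stays between 553 and 746 CPM in all groups, and Dntt is highest with WT at 2.45 and 2.61 CPM.

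With WT TCF-1 against EV, none of the 4 members that passed the filter on low counts in the line (Trbc2, Ptcra, Rag1 and Dntt) was called, where 24.9% of 10939 genes were called (edgeR quasi-likelihood test, adjusted p under 0.05). Of the 4, 1 had an unadjusted p under 0.05, and DESeq2 called 0. That gene was Dntt, with 1.35 and 0.853 CPM under EV and 2.45 and 2.61 CPM under WT, which did not overlap. Its log2 difference was 1.15 ± 0.49 (SE, 95% interval 0.18 to 2.11) with an adjusted p of 0.083. Rag1 was at 642 and 643 CPM with EV and 628 and 649 CPM with WT, a log2 difference of -0.01 ± 0.05 (adjusted p = 0.924). Ptcra differed by -0.03 ± 0.08 (adjusted p = 0.845) and Trbc2 by 0.16 ± 0.17 (adjusted p = 0.57). All cell line comparisons share either the EV or the WT libraries.

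Against EV, Rag1 was the only member called, and it was called for DL6 and DHMG. For DL6, Rag1 was at 553 and 558 CPM, below both EV libraries, and fell by 0.21 on the log2 scale (SE 0.05, adjusted p = 0.0121), 1 of 4 members where 1.5% of genes were called. With DHMG it was at 746 and 702 CPM, above both EV libraries, and rose by 0.17 (SE 0.05, adjusted p = 0.0105), 1 of 4 where 17.1% were called. Both differences are small, at 1.16-fold and 1.13-fold. The DHMG libraries also stood apart in quality measures. Their forward counts were 8.56% and 8.49% of stranded reads, against at most 5.83% in the other line libraries. Rows that name no gene held 73.7% and 73.9% of their reads, against at most 70.4%. Whether this bears on the comparisons of DHMG with EV or WT was not tested. Leaving out either EV library or either DL6 library moved the adjusted p of the DL6 call to between 0.14 and 0.172. The DHMG call was lost without EV replicate 1 (adjusted p = 0.0862), EV replicate 2 (0.0731) or DHMG replicate 1 (0.274). With DL1, DL2 and DL7 no member was called by edgeR or by DESeq2, with 1, 1 and 0 members at an unadjusted p under 0.05, where 11%, 5.06% and 2.78% of genes were called.

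Against WT, Dntt, Trbc2 and Rag1 were lower with some deletion constructs, and Rag1 and Ptcra were higher with DHMG. Dntt was at 0.753 and 0.523 CPM with DL7, from 7 and 3 reads, against 2.45 and 2.61 CPM with WT, from 21 and 16 reads. The groups did not overlap, and Dntt fell by 1.90 on the log2 scale (SE 0.53, adjusted p = 0.00508). That call held with each library left out and was lost with strand ignored, where the log2 difference was -1.06 (adjusted p = 0.0867). DESeq2 gave no adjusted p for it. Trbc2 was at 13.1 and 12.9 CPM with DL7 against 19 and 18.1 CPM with WT, and fell by 0.51 (SE 0.18, adjusted p = 0.0234). It was also called with DL2, at 11.6 and 13.1 CPM, where it fell by 0.60 (SE 0.19, adjusted p = 0.0319). Both Trbc2 calls were lost without any 1 of their 4 libraries, with adjusted p-values of 0.0593 to 0.145 for DL7 and 0.0746 to 0.287 for DL2. DESeq2 did not call the DL7 difference (adjusted p = 0.112) and gave no value for the DL2 one.

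Rag1 fell by 0.20 on the log2 scale with DL6 against WT (SE 0.05, adjusted p = 0.00217), a call that held with each library left out. With DHMG against WT, Rag1 rose by 0.18 (SE 0.05, adjusted p = 0.00773) and Ptcra, at 98.3 and 109 CPM against 86.4 and 88.2 CPM, by 0.24 (SE 0.08, adjusted p = 0.0448). The Ptcra call was lost without any 1 of its 4 libraries (adjusted p 0.0694 to 0.365), with DESeq2 (0.13), with no filter (0.24) and with strand ignored (0.0511). The Rag1 call was lost without DHMG replicate 1 (0.229), without WT replicate 1 (0.14) and with no filter (0.0724). DL2 and DL6 each had 1 of 4 members called (background 11.4% and 21.5%), and DL7 and DHMG each had 2 of 4 (background 30.5% and 14.8%). With only 4 members tested, nothing is read from these counts against the background. With DL1 none was called by edgeR or DESeq2, 2 had an unadjusted p under 0.05, and the background was 10.8%.

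In primary DN1 cells every member was low. Trbc1 was at 0.212 to 0.968 CPM in the 10 DN1 replicates and Trbc2 at 0 to 0.351 CPM. Tcrg-C1 was at 0 to 1.51 CPM and Tcrg-C2 at 0 to 0.313 CPM. Dntt was at 0.0958 to 1.83 CPM. Rag1 had 1 read in all 10 DN1 replicates together, Trdc 3 reads and Rag2 13, and Ptcra had 4 reads in all 16 primary replicates. Ptcra therefore did not pass the filter in primary cells, where the other 8 members were tested, and 8 is the denominator below.

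No member was called by edgeR in the 8 comparisons made between constructs in DN1, and HMGd was not compared with L1d or L7d. Against EV, 0 of 8 were called with P45, L1d, L7d and HMGd (edgeR), with 2, 0, 1 and 0 at an unadjusted p under 0.05 and 1, 0, 0 and 0 called by DESeq2. The shares of all 15010 genes called were 7.46%, 0.473%, 5.0% and 0.00666%. Between constructs, 0 of 8 were called for L1d, L7d and HMGd against P45 and for L1d against L7d. There, 0, 0, 1 and 0 had an unadjusted p under 0.05, DESeq2 called 0, 0, 1 and 0, and the background was 1.33%, 0.00666%, 4.88% and 0.06%. Trdc had 0 reads in DN1 cells with EV, P45, L1d and HMGd, and Rag1 had no read outside EV, so neither could have been called in most of these comparisons and the counts of 0 say nothing about them. Rag2 and Tcrg-C2, with 13 and 17 reads over all DN1 replicates, were only weakly tested. All of these comparisons but L1d against L7d share the EV or the P45 replicates.

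Tcrg-C1 and Dntt are given by construct in DN1, and they were not the only members with groups that did not overlap. Trbc1, for example, was at 0.385 and 0.392 CPM with P45 against 0.234 and 0.251 CPM with EV. How many of all genes did not overlap in such comparisons was not counted. Tcrg-C1 was at 0.328 and 0.188 CPM with EV, 1.15 and 1.51 CPM with P45, 0.798 and 0.967 CPM with L7d, 0.575 and 0.391 CPM with L1d, and 0 reads in both HMGd replicates. The P45 and EV values did not overlap, with a log2 difference of 2.32 ± 0.91 and an adjusted p of 0.173. Over the alternatives, that adjusted p ran from 1.99e-07 with no filter to 0.458 without EV replicate 2. Against HMGd, P45 was at least 11.2-fold higher (74 reads against the limit of 3 over the HMGd group), with an adjusted p of 0.0804 that ran from 1.19e-11 with no filter to 0.324 without HMGd replicate 2 (0.00127 with DESeq2). Dntt was at 1.83 and 1.82 CPM with EV and at most 0.722 CPM in the other DN1 replicates, and the log2 difference of P45 from EV was -1.86 ± 1.01 (adjusted p = 0.366).

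From DN1 to DN2 the constant genes and recombination enzymes rose together. With P45 all 8 tested members were called higher in DN2, where 20.6% of genes were called higher. With L7d all 8 were called higher (background 19.5%), and with L1d 6 of 8 (background 20.1%), without Rag1 and Dntt. Trdc, Rag1, Rag2 and Tcrg-C2, with 3, 1, 13 and 17 reads over all DN1 replicates, passed the filter through the DN2 groups where they are high, while Ptcra, low at both stages, did not pass. The counts of 8 are thus partly fixed by the filter, and nothing is read from them against the background. In DN2 cells with P45, Tcrg-C1 was at 91.3 and 61.1 CPM, against 1.15 and 1.51 CPM in DN1. Its log2 difference was 5.80 ± 0.44 (adjusted p = 1.19e-07). Tcrg-C2 followed at 44.1 and 28.9 CPM, a ratio to DN1 of 654 by pooled reads with a 95% counting interval of 223 to 3180, since DN1 held 3 reads.

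Trbc1 was at 22.3 and 20.7 CPM in P45 DN2 cells and rose by 5.77 ± 0.43 (adjusted p = 4.56e-08). Trbc2 was at 11.8 CPM in both replicates and rose by 5.78 ± 0.63 (adjusted p = 4.05e-06), by 6.54 without DN1 replicate 1 and 5.10 without DN1 replicate 2. Trdc was at 15.5 and 12.7 CPM, against 0 reads in DN1, at least 254-fold higher. Beta, gamma and delta constant genes were all present in DN2 replicates with P45, while in the line Trbc2 held nearly all reads on a member constant gene.

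Dntt was at 9.48 and 4.85 CPM in P45 DN2 cells and rose by 3.83 ± 0.94 on the log2 scale (adjusted p = 0.00369). Rag1 was at 3.22 and 2.23 CPM, at least 48.9-fold above the DN1 limit, and Rag2 at 2.13 and 1.39 CPM, with a rise of 3.12 ± 0.82 (adjusted p = 0.0074). The Rag2 rise was 4.73 without DN1 replicate 1 and 2.17 without DN1 replicate 2, and its call was lost without DN1 replicate 2 (adjusted p = 0.103) or DN2 replicate 1 (0.0546), and the Dntt call without DN1 replicate 2 (0.0561). In the L7d comparison the Dntt call was lost without DN1 replicate 1 (0.0556) or DN2 replicate 1 (0.372). In the L1d comparison the Trdc call was lost without DN1 replicate 2 (0.107) or DN2 replicate 1 (0.0775), the Tcrg-C2 call without the same replicates (0.0803 and 0.0507), and the Rag2 call without DN1 replicate 1 (0.0928), DN1 replicate 2 (0.218) DN2 replicate 2 (0.251) or with strand ignored (0.0646). In bulk samples, fewer cells of a type and less RNA per cell cannot be told apart.

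**Figure D2:**
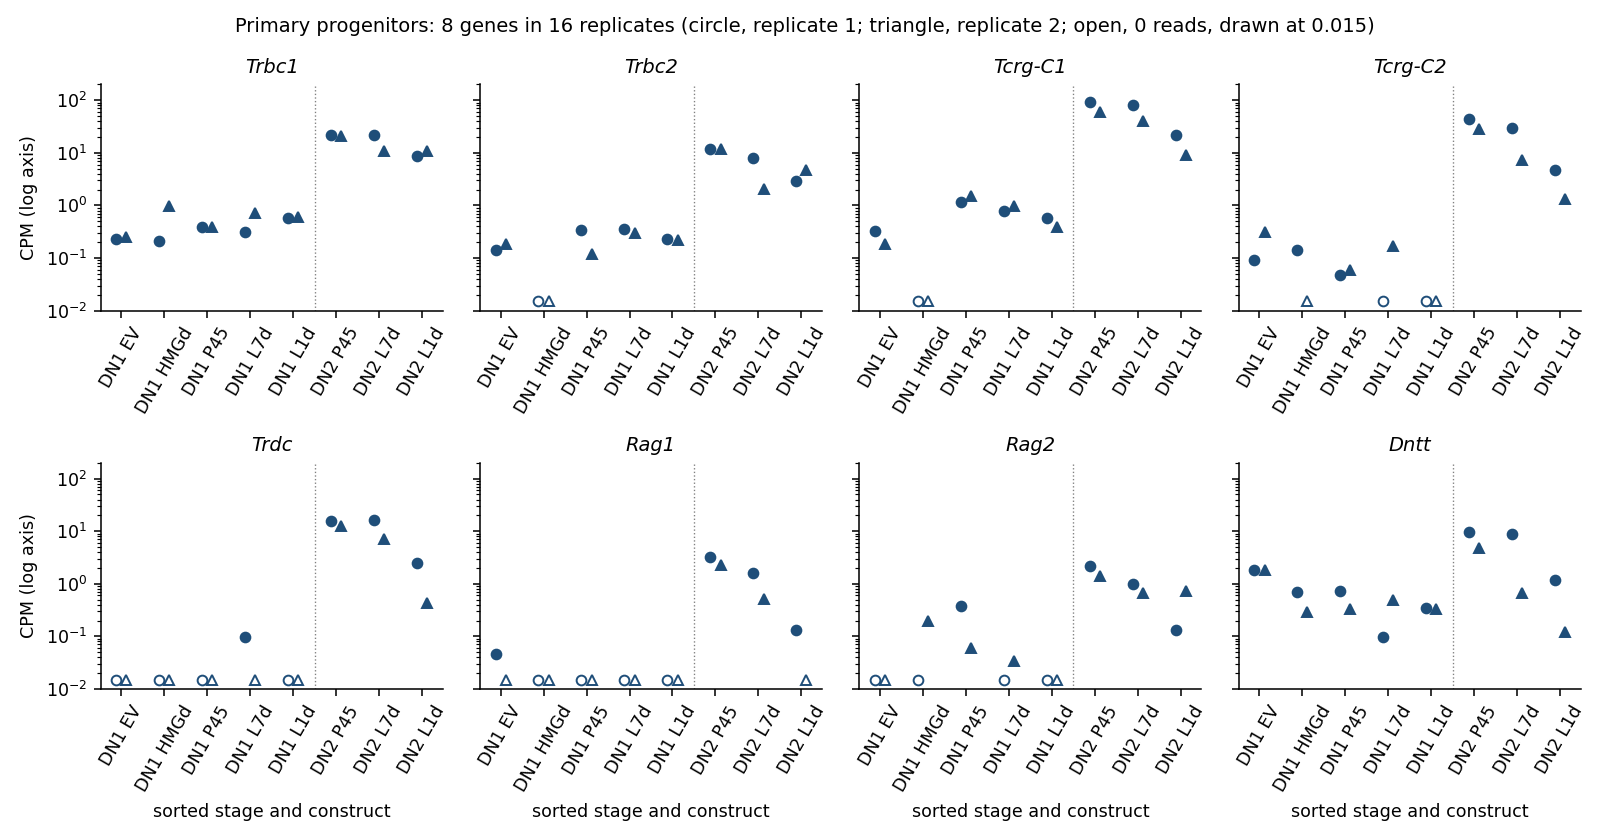
The 8 tested members in the 16 primary replicates, in TMM-scaled CPM on a log axis (y) by stage and construct (x), with DN2 right of the dotted line, a circle for replicate 1 and a triangle for replicate 2. Open symbols mark 0 reads and are drawn at 0.015 CPM. All 8 genes are higher in both P45 DN2 replicates than in either P45 DN1 replicate.

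Per length, the order of the members in DN2 cells was not that in the line. Levels set side by side come from separately normalized arms and are given with no test. In DN2 cells with P45, the mean was 82.5 CPM per kilobase for Tcrg-C1, 39.9 for Tcrg-C2, 28.7 for Trbc1, 17 for Trbc2, 3.65 for Trdc, 3.12 for Dntt, 0.514 for Rag2, 0.412 for Rag1 and 0.0329 for Ptcra. With L7d, Trbc1 (22.2) and Tcrg-C2 (20.5) stood close together below Tcrg-C1 (66.6). With L1d, Tcrg-C2 (3.34) was below Trbc1 (13.1) and Trbc2 (5.54), and Tcrg-C1 was at 16.8. In the line, Rag1 and Ptcra were the highest of the 9 and the gamma genes had 0 reads.

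**Figure D3:**
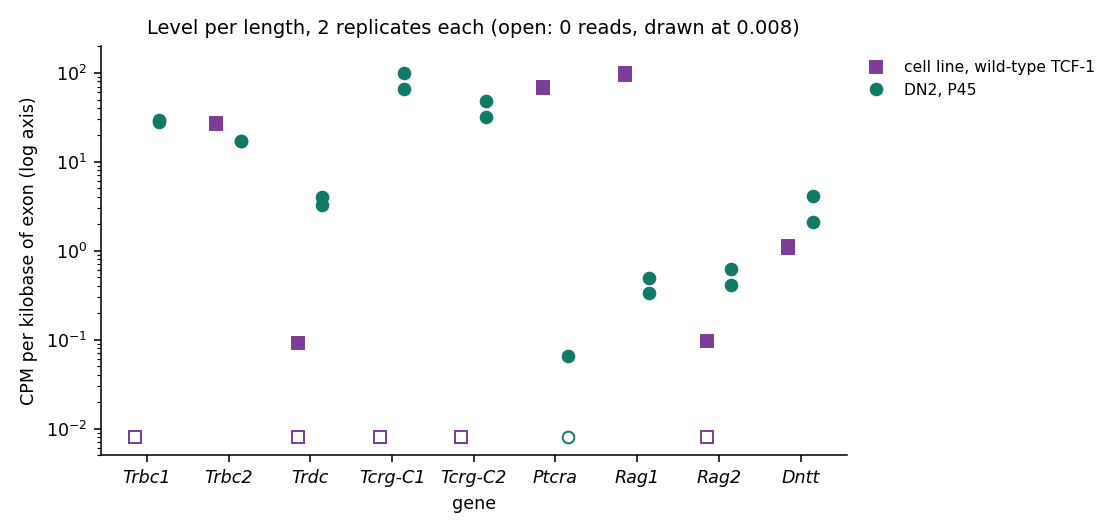
Level of the 9 genes in CPM per kilobase of exon on a log axis (y), in the cell line with WT TCF-1 (squares) and in DN2 cells with P45 (circles), 2 replicates each, with open symbols for 0 reads drawn at 0.008. Ptcra, Rag1 and Trbc2 are higher in the line, and the gamma genes have 0 reads in the line.

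In DN2 cells all 8 members were lower with L1d than with P45 and 7 of the 8 were called lower, in a comparison that called 2.8% of genes lower and 8.05% higher. Rag1, with 2 reads in the L1d group, passed the filter through the other DN2 groups, and Trdc, Rag2 and Tcrg-C2 passed it through DN2 groups. The count of 7 is thus partly fixed by the filter, and nothing is read from it against the background. The gamma genes, Trdc, Rag1 and Dntt differed most. Tcrg-C1 was at 21.8 and 9.23 CPM with L1d against 91.3 and 61.1 CPM with P45, and fell by 2.30 on the log2 scale (SE 0.35, adjusted p = 0.000896). Tcrg-C2 was at 4.76 and 1.35 CPM against 44.1 and 28.9 CPM, and fell by 3.59 (SE 0.60, adjusted p = 0.00186). Neither gene's groups overlapped.

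Trdc was at 2.48 and 0.431 CPM with L1d against 15.5 and 12.7 CPM with P45, and fell by 3.29 (SE 0.60, adjusted p = 0.00554). DESeq2 did not call it (adjusted p = 0.464). Trbc1 was at 8.87 and 10.8 CPM against 22.3 and 20.7 CPM, and fell by 1.13 (SE 0.30, adjusted p = 0.0268). Trbc2 was at 2.93 and 4.74 CPM against 11.8 CPM in both P45 replicates, and fell by 1.61 (SE 0.45, adjusted p = 0.0355). The beta constant genes were lower in both L1d replicates than in either P45 replicate. Both beta calls were lost with any 1 of the 4 replicates left out, with adjusted p-values of 0.0741 to 0.148 for Trbc1 and 0.0732 to 0.144 for Trbc2.

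Rag1 had 2 reads in the L1d DN2 group, 0.13 and 0 CPM, against 127 reads with P45, 3.22 and 2.23 CPM. By pooled reads P45 was 42.9-fold higher, with a 95% counting interval of 11.6 to 358 (adjusted p = 0.00539). Dntt was at 1.17 and 0.123 CPM against 9.48 and 4.85 CPM, and fell by 3.48 (SE 0.97, adjusted p = 0.0319). Without L1d replicate 2 the Dntt adjusted p was 0.214, and without P45 replicate 1 it was 0.183. Rag2 was the member not called, at 0.13 and 0.738 CPM against 2.13 and 1.39 CPM, with a log2 difference of -1.99 ± 0.78 (95% interval -3.52 to -0.45, adjusted p = 0.137). The sizes depended on which L1d replicate was kept. Without L1d replicate 1 the log2 differences were -3.07 for Tcrg-C1, -4.77 for Tcrg-C2, -5.04 for Trdc and -5.82 for Dntt, and the Rag1 group had 0 reads. Without L1d replicate 2 they were -1.82, -2.96, -2.53 and -2.62 in the same order, and -4.34 for Rag1. The calls for Tcrg-C1, Tcrg-C2 and Rag1 held with each replicate left out and under every other setting tried, and that for Trdc with each replicate left out.

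**Figure D4:**
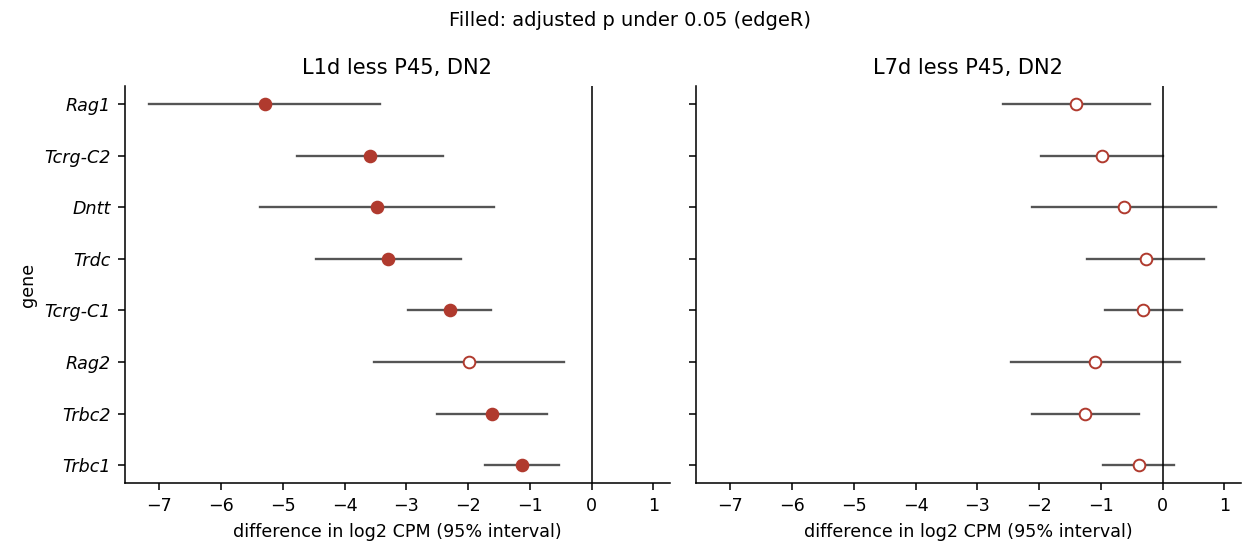
Difference in log2 CPM (x) of L1d from P45 and of L7d from P45 in DN2 cells for 8 genes (y), with 95% intervals and filled points for an adjusted p under 0.05 in edgeR. With L1d 7 genes are called lower, from -1.13 for Trbc1 to -5.29 for Rag1 (a fitted value from 2 reads), and with L7d none is called.

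With L7d none of the 8 was called against P45 in DN2 (edgeR), 2 had an unadjusted p under 0.05, DESeq2 called 0, and 0.293% of all genes were called. The L7d replicates differed from each other, the second being lower for all 8 members. Tcrg-C1 was at 82.6 and 40.5 CPM, Trdc at 16.5 and 7.05 CPM, and Dntt at 8.95 and 0.659 CPM. Trbc2, at 8.10 and 2.02 CPM, was below both P45 replicates, with a log2 difference of -1.25 ± 0.44 (95% interval -2.11 to -0.39, adjusted p = 0.4). Rag1, at 1.63 and 0.504 CPM, was also below both, at -1.40 ± 0.61 (-2.59 to -0.20, adjusted p = 0.636). Rag2, at 1.01 and 0.659 CPM, was below both as well, at -1.09 (-2.46 to 0.28). The intervals of Tcrg-C2 (-1.97 to 0.01), Dntt (-2.11 to 0.87), Trbc1 (-0.96 to 0.19), Trdc (-1.22 to 0.67) and Tcrg-C1 (-0.94 to 0.31) also spanned 0, which does not show that L7d and P45 act alike. How many of all genes lay below both P45 replicates with L7d was not counted, so nothing is read from the members that did.

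Set against each other in DN2, L1d was called lower than L7d for Tcrg-C1, Tcrg-C2 and Trdc, 3 of 8 where 1.09% of genes were called lower. The filter partly fixes this count as well, and nothing is read from it against the background. Tcrg-C1 fell by 1.98 on the log2 scale (SE 0.35, adjusted p = 0.00438). Tcrg-C2 fell by 2.61 (SE 0.60, adjusted p = 0.021), and Trdc fell by 3.02 (SE 0.60, adjusted p = 0.0141). DESeq2 called only Tcrg-C1 of the 3, with 0.209 for Tcrg-C2 and 0.623 for Trdc. Without L7d replicate 1 all 3 calls were lost, at log2 differences of -1.40, -1.28 and -2.30 and adjusted p-values of 0.056, 0.32 and 0.114 in the same order. Without L1d replicate 2 the Tcrg-C2 (log2 -1.94, 0.176) and Trdc (-2.23, 0.0586) calls were lost. Without L1d replicate 1 the log2 differences were -2.75, -3.78 and -4.76, and without L7d replicate 2 that of Tcrg-C2 was -3.31. Rag1 missed the threshold (adjusted p = 0.0553), and the 3 DN2 comparisons share replicates.

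Whether the stage difference itself depended on the construct was tested as an interaction. For DN2 minus DN1 with L1d less that with P45, 0 of 8 members were called (edgeR), 1 had an unadjusted p under 0.05, DESeq2 called 0, and the background was 1.58%. The member with the lowest p was Trbc1, at -1.75 ± 0.77 (adjusted p = 0.318). For L7d less P45, 0 of 8 were called, 0 had an unadjusted p under 0.05 and DESeq2 called 0, with a background of 0.0%. Most of these members had few or no DN1 reads, which limits this test.

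Reads were divided unequally within the constant gene pairs, and the division was similar between P45 replicates. Of reads on Trbc1 and Trbc2 in DN2, Trbc1 took 65.5% (95% Wilson interval 62.1 to 68.7) and 63.7% (60.3 to 67.0) with P45, 73.4% (69.5 to 76.9) and 84.3% (80.0 to 87.9) with L7d, and 75.1% (68.4 to 80.9) and 69.4% (63.5 to 74.8) with L1d. Of reads on Tcrg-C1 and Tcrg-C2, Tcrg-C1 took 67.4% and 67.9% with P45, 73.3% and 84.7% with L7d, and 82.1% and 87.2% with L1d. Both P45 replicates had the lowest share of the first gene in each pair. In the line, Trbc1 took 1 of the 1330 reads. Intervals cover counting error only. Trbc1 also had 419 reads on the opposite strand in DN2 against 1992 on its own, or 17.4%, where Trbc2 had 0.115%.

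**Figure D5:**
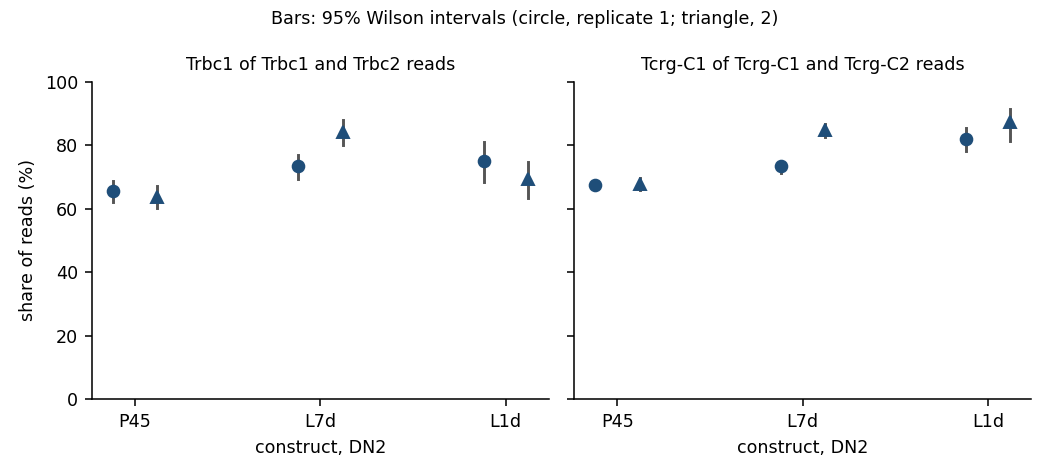
Share of reads in percent (y) that fell on Trbc1 of Trbc1 and Trbc2 (left) and on Tcrg-C1 of Tcrg-C1 and Tcrg-C2 (right) in DN2 replicates by construct (x), with 95% Wilson intervals. The P45 replicates are lowest in both panels, at 65.5% and 63.7% for Trbc1 and 67.4% and 67.9% for Tcrg-C1.

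Other genes moved with the members in L1d DN2 cells. Il2ra, part of the sort, was at 373 to 448 CPM with L1d, 687 to 1180 CPM with L7d and 1180 to 1280 CPM with P45. Thy1 was at 1.47 ± 0.867 CPM with L1d and 24.4 ± 8.10 CPM with P45. The 14 myeloid marker genes summed to 4310 to 4930 CPM with L1d and 1940 to 1990 CPM with P45, none was at 0 reads, and 11 of 14 were called higher with L1d (8.05% of all genes were), among them S100a9 (175 ± 97.1 against 37.7 ± 5.65 CPM). The 12 B lineage genes summed to 8.98 to 9.78 CPM with L1d and 12.9 to 14.3 CPM with P45, and 1 of 9 tested (Ighm) was called lower (2.8% of all genes were). CD11b and B220 were among the stains of the sort, but the stated gates do not name them. The part of these genes in the result was not tested.

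The genes that work with the members were followed as lists. Of the CD3 chains that carry the receptor to the surface, 3 of 4 passed the filter and all 3 were called lower with L1d than with P45 in DN2: Cd3g (0 reads against 8.35 ± 6.57 CPM), Cd3d (0 reads against 0.562 ± 0.497 CPM) and Cd247 (0.319 ± 0.103 against 4.35 ± 0.731 CPM). Of all genes, 2.8% were called lower there. Cd3g, with at most 2 reads in a DN1 group, passed the filter through DN2 groups where it is high, and Cd3e did not pass. The count of 3 is thus partly fixed by the filter. The 20 end-joining and DNA repair genes, which rejoin the RAG breaks, were all tested. With L1d against P45 in DN2, Lig4, the ligase of end joining, was called lower (3.05 ± 0.993 against 5.59 ± 0.516 CPM), and the median log2 difference of the list was -0.11. From DN1 to DN2 with P45, 8 of the 20 rose and 6 fell, where 20.6% of all genes were called higher and 22.6% lower, with a median log2 difference of 0.17 in the list. Trp53bp1 rose to 74.8 ± 1.12 from 36.6 ± 1.21 CPM, and Dclre1c, which encodes the hairpin-opening nuclease Artemis, fell to 15.6 ± 1.6 from 31.3 ± 1.44 CPM.

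Of the 7 genes listed as markers of gamma delta T cells, 6 were found by symbol and 4 were tested in primary cells. Scart2 had no match under that symbol and was not followed in this list. With L1d against P45 in DN2, where 8.05% of all genes were called higher and 2.8% lower, Cd163l1 was lower (0.157 ± 0.0383 against 5.89 ± 0.522 CPM) and Maf higher (68.4 ± 36.4 against 29.2 ± 2.70 CPM), and Il17a had 0 reads in both groups. Of 13 NK and innate lymphoid genes 10 were tested, and 2 were higher (Il23r and Il1rl1) and 1 lower (Gata3, 15 ± 0.723 against 43.9 ± 6.86 CPM). Of the dendritic list, 1 of 6 tested genes was higher (Irf8), and of the stromal list 0 of 7 was called. Of the 4 tested gamma delta markers, 1 was thus called lower, 1 was called higher and 2 were not called.

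Variable and joining segments were also counted in primary cells. The 34 beta variable genes summed to 7.63 to 26.5 CPM in DN2 and 0.678 to 3.74 CPM in DN1. Trbv13-2 was at 12.7 ± 0.298 CPM with P45, 14.6 ± 7.09 CPM with L7d and 5.59 ± 0.709 CPM with L1d in DN2. The 7 gamma variable genes held 116 reads in DN2 against 10940 on the 4 gamma constant genes, and the 6 delta variable genes 228 against 1180 on Trdc. Tcrg-C4 was at 18.5 ± 1.77 CPM with P45, 15.1 ± 7.31 CPM with L7d and 3.82 ± 3.92 CPM with L1d. The alpha constant gene held 20 reads in DN2 and 8 in DN1.

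Across the 16 primary replicates, log2 CPM values of the tested members correlated with each other at Pearson r from 0.54 (Trbc1 and Dntt) to 0.97 (Trdc and Tcrg-C2), as a description over points that fall into separate DN1 and DN2 clusters. The genes most like Trdc in that measure were Slc15a1 (0.991), Gimap7 (0.988) and Tcrg-C4 (0.987), and those most like Rag1 were 5830411N06Rik (0.989), Cd163l1 (0.978) and Gm31887 (0.972). In the 14 cell line libraries, Ptcra and Rag1 had r = 0.72, while Trbc2 and Rag1 had r = -0.14. The gene most like Rag1 there was Drg2 (0.925) and the one most like Ptcra was Cad (0.895).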

How the data were processed

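Per the labels' protocols, libraries were made from total RNA by a strand-keeping SMARTer Pico kit and read in pairs on a NextSeq 550. The molecule label names genomic DNA, which the protocol contradicts. Per the submitters' processing notes, the build was GRCm38 and the tools included STAR 2.5.0a and HTSeq 0.6.1. The authors deposited raw counts per gene, unstranded, forward and reverse. Reverse-strand counts were used, since forward counts were 4.88% to 8.56% of stranded reads. One L1d DN1 file lists 14312 genes and was left out. Rows that name no gene were left out of library sizes and held 65.9% to 73.9% (line) and 56.1% to 68.6% (primary) of reads.

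Libraries that share a B number were summed per primary replicate, on the reading that T numbers are technical. CPM are scaled by TMM factors (0.86 to 1.14). Each arm was fitted whole with edgeR 4.0.16 (glmQLFit and glmQLFTest, filterByExpr, R 4.3.3), giving 10939 and 15010 tested genes, with Benjamini-Hochberg adjustment over all genes of the arm and a call at an adjusted p under 0.05. The fits were tested on simulated counts. SE is the log2 difference divided by the root of F. The 95% interval of a log2 difference takes a normal quantile of this SE and not the distribution of the test. It is thus narrower than the test implies and can exclude 0 where the unadjusted p does not pass. With 0 reads a bound uses 3 counts over the group, and with few reads a ratio of pooled reads with an exact conditional Poisson interval is given. The alternatives were DESeq2 1.42.0, RLE factors, no filter, strand ignored, rRNA genes left out, T libraries as replicates, a replicate block and each replicate left out.

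The named genes are all 9 members, at most 4 called genes per list and comparison (with all CD3 genes and gate markers), the 3 genes most like each tested member by Pearson r, and the 6 receptor locus genes with the highest level per arm. A result of the end-joining list that the rule would name is not reported here. The members and lists were chosen with earlier results of these data known.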

Additional observations from a re-analysis of the deposited data

Results flagged for a closer look

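In 21 sets of 1 member in the T libraries of 1 primary group, 1 library stood apart from the others, a rate near what chance gives (about 1 set in 20). For Tcrg-C1 in P45 DN1 cells, T library 2 of replicate 1 was at 0.756 CPM, the lowest of 6 libraries, and the nearest library was at 1.32 CPM. That gap was 0.641 of the group's whole range. Only sets with 4 to 10 libraries and a mean of at least 10 reads were examined.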

How the results depend on the processing

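The counts of member calls moved as follows. With each replicate left out in turn, the 2 calls against EV in the line ranged from 0 to 2, the 6 against WT from 2 to 7, the 10 between constructs in DN2 from 5 to 13 and the 22 from DN1 to DN2 from 19 to 22, and the counts of 0 in DN1 and for the interaction remained at 0; the lone replicate left in a group is assumed to vary like the other groups. DESeq2 gave 2 calls against WT in the line, 1 against EV in DN1 and 1 between constructs in DN1. With no filter there were 7 against EV in DN1, 2 between constructs in DN1, 16 between constructs in DN2 and 2 for the interaction. With T libraries as replicates there were 3, 1 and 17 for the first 3 of these. Only member comparisons called under at least 1 setting were followed gene by gene, and none of those followed reversed direction under any setting tried. Of their single-gene values under alternatives, 553 stayed on their side of the threshold, 58 dropped below it and 40 passed it. The cause of these moves was not tested.

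The labels give groups the same replicate numbers. Same-numbered replicates deviated together at r = -0.04 to 0.04 over 21 pairs of cell line groups and -0.03 to 0.26 over 28 pairs of primary groups, of which 11 were over 0.1 and not every one, so the numbers were not taken as pairs. A replicate block gave 1 call against EV in DN1 (Tcrg-C1, P45, adjusted p = 0.0144), 1 between constructs in DN1 (Tcrg-C1, HMGd against P45, adjusted p = 0.00441), and 11 between constructs in DN2. Counts over all genes, and the background shares that rest on them, moved too: from 2722 to between 1620 and 1760 for WT against EV in the line (DESeq2 or a library left out), from 1630 to between 527 (without P45 replicate 1) and 3543 (T libraries) for L1d against P45 in DN2, from 44 to between 0 and 888 for L7d against P45, and from 873 to between 184 (without L7d replicate 1) and 2357 for L1d against L7d. They did not move by over 1.5 times from DN1 to DN2. Depth limits Rag1, Rag2, Trdc and Ptcra most, which had 0 reads in most DN1 replicates.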

Other observations

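In DN1 cells with L7d, Tcrg-C1 took 25 of 25 and 29 of 34 reads on the Tcrg-C1 and Tcrg-C2 pair, and with P45 24 of 25 and 50 of 52, against 73.3% and 84.7% in DN2 cells with L7d and 67.4% and 67.9% with P45. Replicate 2 of L7d was thus at 85.3% in DN1 and 84.7% in DN2. The lowest bound of the Wilson intervals in these DN1 replicates was 69.9%. DN1 replicates of the other constructs had fewer reads on the pair and were given no share. With EV, Tcrg-C1 had 7 and 3 reads and Tcrg-C2 had 2 and 5. With L1d the reads were 5 and 7 against 0 and 0, and with HMGd 0 and 0 against 2 and 0. The division seen with L7d and P45 was thus not seen in every DN1 group. The delta constant gene had no read in 9 of 10 DN1 replicates, where Trbc1 had reads in all 10.

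Dntt was the tested member whose log2 CPM was least like the others across primary replicates, and its nearest genes by Pearson r were Parvg (0.922), Terc (0.885) and Lef1 (0.877). Lef1 encodes a relative of TCF-1. These are descriptions over 16 replicates that share 2 stages.

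The low-level reads of Rag2 in the cell line lay mostly on the opposite strand (87.9%), where B230118H07Rik is annotated, and in DN2 cells mostly on its own strand, with 0.758% opposite.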
